A study of Mus musculus with 14 samples.

Results

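The regions described here are 2654 sites of DMC1 enrichment in *Hells* cKO testes that were rich in CG dinucleotides but lay away from annotated promoters. They were chosen by 3 criteria from the 17117 peaks of the *Hells* cKO list: an autosomal peak center with no *Hells* CTRL center at less than 400 bp, no transcript start of GENCODE M21 within 1 kb, and at least 15 CG dinucleotides within 250 bp of the center. Distances were counted from the center, so the interval of a member could still cover a start. The criteria left 15443 of 16321 autosomal peaks after the first, 5557 after the second and 2654 after the third, so the members were 15.5% of the list. DMC1 ChIP-SSDS, which sequences the single-strand DNA bound by DMC1, was done on whole testes of adult *Hells* CTRL mice (genotype Hellsfl/Δ, 5 weeks old, 2 testes per replicate) and *Hells* cKO mice (genotype Hellsfl/Δ;Stra8-iCre, 9 weeks old, 3 testes per replicate), with 2 replicates per genotype. Both genotypes thus carry 1 deleted and 1 floxed *Hells* allele, and both express the PRDM9 Dom2 variant. Cre was driven by the *Stra8* promoter, which is active in male germ cells entering meiosis, and some *Hells* cKO spermatocytes kept HELLS. Age and genotype differed together and cannot be told apart. The authors merged the replicates into 1 peak list per genotype, in which each peak has 1 strength, so no value per mouse and no test across mice could be given, and peaks are not replicates. The intervals given below cover counting error only.

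DMC1 is the strand exchange protein that coats the resected single-strand ends of meiotic DNA double-strand breaks (DSBs), and the DNA recovered with it marks where DSBs formed. In mice, PRDM9 binds its DNA motif and directs DSBs to sites that are mostly away from promoters, and HELLS is a chromatin remodeler of the SNF2 family. CG dinucleotides are depleted from most of the mouse genome, and the stretches that kept them, CpG islands, are usually unmethylated. Many CpG islands hold gene promoters, and others lie inside genes or between genes, where some serve as enhancers or as starts of transcripts that an annotation does not list.

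The sequence at the centers shows what the selection gathered. Each sequence below is the center base of a member with 100 bases on each side, on the + strand of GRCm38, with CG dinucleotides in capitals. The first 3 are shown because they lie in coding exons, where the CG dinucleotides fall among codons. *Zkscan16* holds the strongest member and *Nrip1* the next, and *Zfp791* holds the strongest member in a gene named Zfp.
Zkscan16 coding exon, chr4:58957120-58957320: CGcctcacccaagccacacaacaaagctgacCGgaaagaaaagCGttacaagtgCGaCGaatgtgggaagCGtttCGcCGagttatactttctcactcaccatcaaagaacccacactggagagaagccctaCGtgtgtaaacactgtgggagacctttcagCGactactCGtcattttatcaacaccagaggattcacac
Zfp791 coding exon, chr8:85110194-85110394: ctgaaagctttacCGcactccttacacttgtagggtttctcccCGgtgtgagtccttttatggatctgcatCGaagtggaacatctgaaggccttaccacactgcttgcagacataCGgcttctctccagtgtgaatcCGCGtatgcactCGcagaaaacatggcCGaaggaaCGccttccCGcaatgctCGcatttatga
Nrip1 coding exon, chr16:76292355-76292555: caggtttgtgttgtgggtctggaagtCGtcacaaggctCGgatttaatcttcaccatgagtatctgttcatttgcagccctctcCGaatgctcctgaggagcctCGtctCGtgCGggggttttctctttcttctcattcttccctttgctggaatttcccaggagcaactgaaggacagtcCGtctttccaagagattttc
The windows held 11, 11 and 7 CG dinucleotides, and those of *Zkscan16* and *Zfp791* lie in arrays of C2H2 zinc fingers, whose DNA repeats from finger to finger. The next pair is shown because these are strong members in introns, with 7 and 5 CG dinucleotides in the window. *Nek7* holds the strongest member at the minimum of 15 CG dinucleotides.
Senp7 intron, chr16:56145421-56145621: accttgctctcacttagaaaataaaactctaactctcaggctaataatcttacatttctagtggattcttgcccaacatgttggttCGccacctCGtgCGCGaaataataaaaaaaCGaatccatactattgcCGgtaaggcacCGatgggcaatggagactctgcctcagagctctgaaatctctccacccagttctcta
Nek7 intron, chr1:138618193-138618393: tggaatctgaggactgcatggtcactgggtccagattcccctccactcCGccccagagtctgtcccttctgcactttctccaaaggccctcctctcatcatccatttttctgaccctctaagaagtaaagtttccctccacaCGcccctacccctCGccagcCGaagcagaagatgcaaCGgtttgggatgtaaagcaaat
The last 3 are shown because they lie between annotated genes and have the makeup of a CpG island. They held 29, 12 and 38 CG dinucleotides in 201 bases.
between genes, nearest coding start Chd2, chr7:73618534-73618734: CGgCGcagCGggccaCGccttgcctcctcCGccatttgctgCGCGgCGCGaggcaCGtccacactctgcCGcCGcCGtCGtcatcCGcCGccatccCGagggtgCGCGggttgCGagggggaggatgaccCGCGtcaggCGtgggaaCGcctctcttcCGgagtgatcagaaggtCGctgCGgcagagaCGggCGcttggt
between genes, nearest coding start Kcnrg, chr14:61686649-61686849: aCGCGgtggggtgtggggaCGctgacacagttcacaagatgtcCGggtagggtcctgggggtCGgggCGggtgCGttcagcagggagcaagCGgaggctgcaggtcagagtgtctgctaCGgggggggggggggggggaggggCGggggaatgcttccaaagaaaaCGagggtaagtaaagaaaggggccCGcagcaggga
between genes, near the start of Mir17hg, chr14:115041606-115041806: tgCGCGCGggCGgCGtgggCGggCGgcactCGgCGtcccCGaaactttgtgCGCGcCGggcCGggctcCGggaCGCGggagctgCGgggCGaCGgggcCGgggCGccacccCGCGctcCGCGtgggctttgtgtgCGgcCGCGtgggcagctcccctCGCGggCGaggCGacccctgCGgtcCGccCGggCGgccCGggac

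The members were weaker than the CG-rich peaks at transcript starts and close to the CG-poor peaks away from starts. The strength of a peak is the authors' score, a whole number that is compared here only within a list, because the authors could not compute a normalization between the genotypes. The median strength of the members was 24 (95% interval 23 to 25), with quartiles of 16 and 40, a 10 to 90 percentile range of 12 to 71 and a full range of 6 to 431. The 9043 CG-rich peaks within 1 kb of a start and also without a *Hells* CTRL center had a median of 44 (43 to 45) and a range up to 629. The 2903 CG-poor peaks away from starts had a median of 20 (19 to 20), and the 843 CG-poor peaks at starts one of 23 (21 to 24). The interval of the members overlapped only that of the last group. The median member stood at percentile 38.9 of all *Hells* cKO peaks, and 982 members (37.0%, 35.2 to 38.9%) reached the list median of 31. A strength of 100 or more was found in 127 members (4.79%, 4.00 to 5.67%), in 20.5% of CG-rich peaks at starts (19.7 to 21.3%) and in 1.83% of CG-poor peaks away from starts (1.37 to 2.38%). The members were 15.5% of the peaks of the list and held 10.5% of its summed strength.

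**Figure D1:**
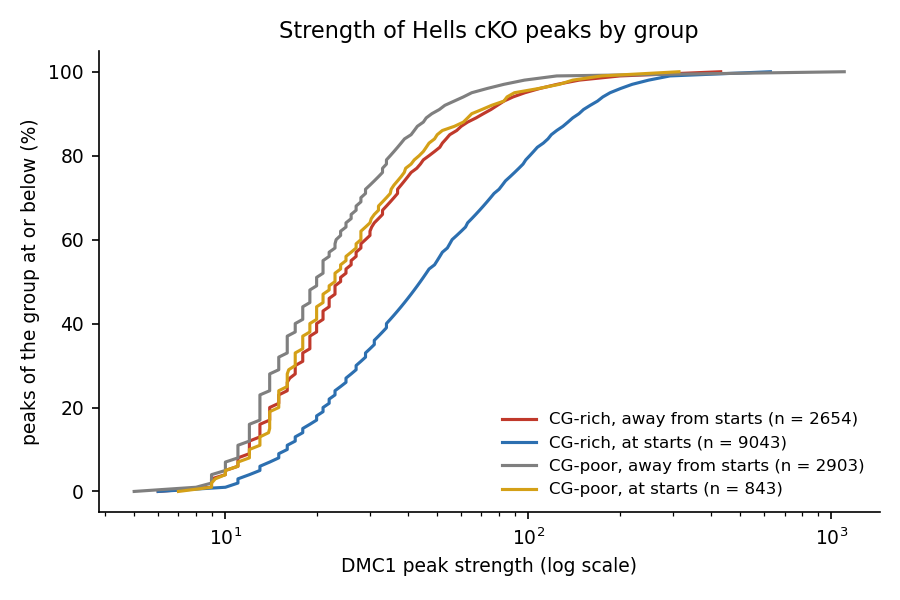
Share of peaks (%) at or below each DMC1 strength (log axis) in the *Hells* cKO list, for 4 groups of autosomal peaks without a *Hells* CTRL center at less than 400 bp. The curve of the members (red, median 24) runs close to those of the CG-poor peaks (medians 20 and 23) and to the left of that of the CG-rich peaks at starts (median 44).

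Strength was somewhat higher at members with more CG dinucleotides. The median was 22 (21 to 23) at the 1528 members with 15 to 19 CG dinucleotides, 25 (23 to 27) at the 533 with 20 to 24, 29 (25 to 32) at the 247 with 25 to 29, and 31 (25 to 35) at the 196 with 30 to 39. It was 26 (22 to 35) at the 69 members with 40 to 49 and 43 (30 to 54) at the 81 with 50 to 99, and the intervals of neighbouring classes met or overlapped throughout. CG-rich peaks at starts had medians of 24 (23 to 26), 29 (28 to 31) and 31 (29 to 32) in the 3 lowest classes, of which the first and the last met or overlapped the intervals of the members. In the classes of 30 to 39, 40 to 49 and 50 to 99 they had medians of 38 (36 to 40), 50 (48 to 52) and 69 (66 to 72), above the intervals of the members. Across members, Spearman's rho between CG dinucleotides and strength was 0.15 (n = 2654), and across CG-rich peaks at starts 0.37 (n = 9043). The members' rho with strength was higher for peak width, 0.51, and lower for G+C content, 0.05. These points share the same merged libraries, and the values are a description. Distance to the nearest start had a rho of -0.03 with strength, and the median strength stayed between 22 and 26 in 7 classes of distance from 1 kb to beyond 100 kb.

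**Figure D2:**
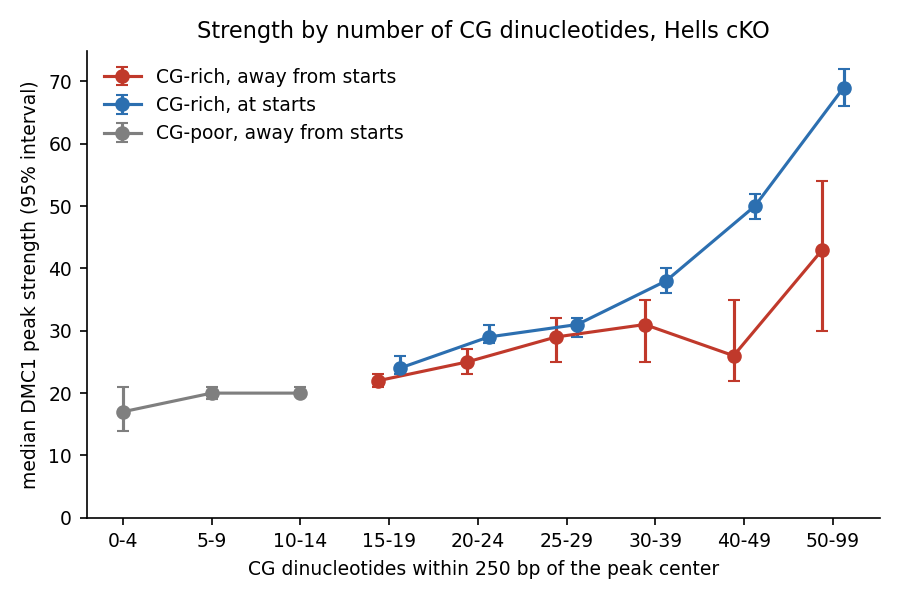
Median DMC1 strength of *Hells* cKO peaks, with its 95% order-statistic interval, by class of the number of CG dinucleotides within 250 bp of the center. Members (red) and CG-rich peaks at starts (blue) have overlapping or meeting intervals at 15 to 19 and at 25 to 29 CG dinucleotides. In the other classes the peaks at starts lie higher, with medians of 50 and 69 against 26 and 43 for members in the last classes.

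A short stretch with the makeup of a CpG island covered the center of most members. Within 250 bp of the center they had a median of 19 CG dinucleotides (quartiles 16 and 24, at most 99), a G+C content of 52.7% and a ratio of observed to expected CG of 0.57, against 41, 64.9% and 0.81 for CG-rich peaks at starts and 11, 48.5% and 0.37 for CG-poor peaks away from starts. These values follow in part from the criteria. A stretch that met the usual definition of a CpG island, windows of 200 bp with a G+C content of at least 50% and a ratio of at least 0.6, covered the center in 2015 members (75.9%, 74.2 to 77.5%), with a median length of 455 bp. The share was 94.7% at CG-rich peaks at starts (94.3 to 95.2%), with a median length of 982 bp. The 639 members without such a stretch had a median strength of 21 (20 to 23), and those with one 25 (24 to 26). Beyond the window that the criteria used, at 300 to 500 bp from the center, members had a mean of 2.44 CG dinucleotides per 100 bp, CG-rich peaks at starts 5.24, CG-poor peaks away from starts 1.96 and *Hells* CTRL peaks 0.884. At 1000 to 2000 bp the values were 1.19, 1.23, 0.991 and 0.883.

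**Figure D3:**
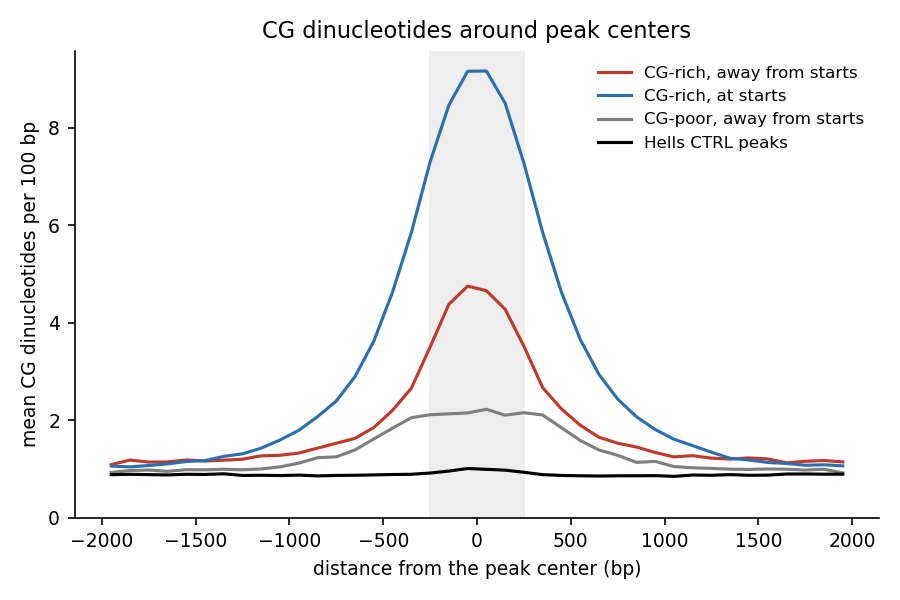
Mean number of CG dinucleotides per 100 bp by distance (bp) from the peak center, in bins of 100 bp, for 3 groups of *Hells* cKO peaks and all *Hells* CTRL peaks. The gray band marks the 250 bp on each side that the selection used. Members (red) have 4.70 per 100 bp within 100 bp of the center, CG-rich peaks at starts 9.16 and CG-poor peaks away from starts 2.19.

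The members split evenly between genes and the space between them. In GENCODE M21, 1324 centers lay between genes (49.9%, 48.0 to 51.8%), 791 in introns (29.8%, 28.1 to 31.6%), 389 in coding exons (14.7%, 13.3 to 16.1%) and 150 in other exons, which are untranslated or noncoding (5.65%, 4.80 to 6.60%). CG-poor peaks away from starts lay in coding exons in 2.72% (2.16 to 3.38%) and between genes in 60.1% (58.3 to 61.9%), and 1533 of 9043 CG-rich peaks at starts lay in coding exons (95% interval 16.2 to 17.7%). The share of coding exons among the members was thus above that of CG-poor peaks and slightly below that of CG-rich peaks at starts, without overlap of the intervals. Over all *Hells* cKO peaks it was 12.8% (12.3 to 13.3%). In *Hells* CTRL peaks coding exons held 2.39% (2.11 to 2.69%) and introns 51.3%. The median strength was 28 (26 to 31) in coding exons, 25.5 (22 to 31) in other exons, 24 (23 to 25) between genes and 23 (21 to 23) in introns. Coding exons overlapped with other exons in this order but not with the remaining classes, and they also had the most CG dinucleotides, with a median of 22 against 18 in introns and between genes.

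**Figure D4:**
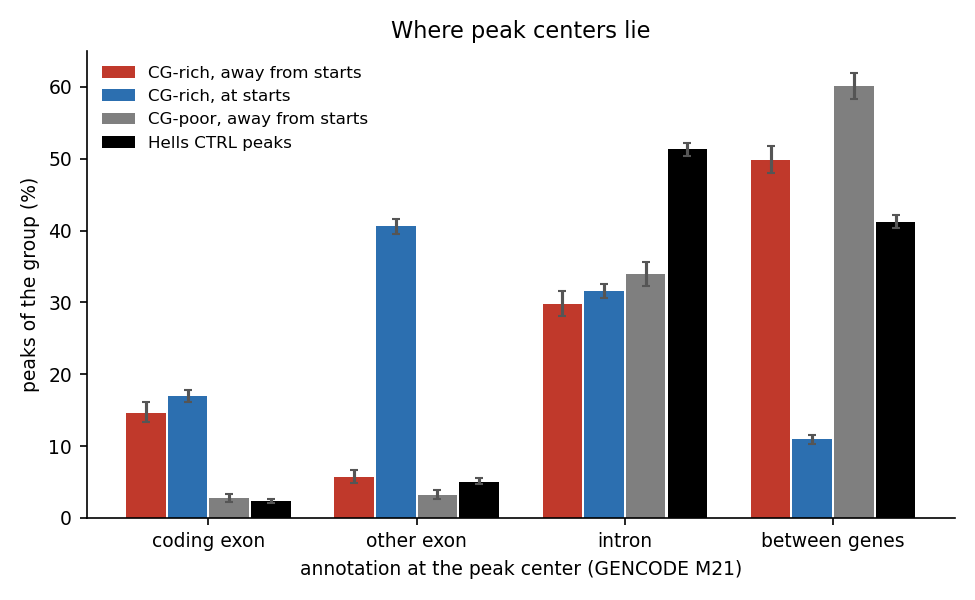
Share of peaks (%) whose center lies in a coding exon, another exon, an intron or between genes, with exact 95% intervals, for members, CG-rich peaks at starts, CG-poor peaks away from starts and *Hells* CTRL peaks. Members (red) reach 14.7% in coding exons, below CG-rich peaks at starts (1533 of 9043) and above 2.72% and 2.39% for the CG-poor and the *Hells* CTRL peaks.

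Members in coding exons often lay in long exons and in the last coding part of a transcript, and so did CG-poor peaks away from starts. The coding part that held a member had a median length of 696 bp (quartiles 287 and 1151 bp), and 127 of 389 (32.6%) were longer than 1000 bp. The median was 587 bp, with 30.4% over 1000 bp, at the 79 CG-poor peaks in coding exons and 221 bp, with 6.78%, at the 1533 CG-rich peaks in coding exons at starts. Weighted by length, since a long exon is more easily hit, 14.7% of all autosomal coding sequence lay in coding parts over 1000 bp. The member lay in the last coding part of a transcript in 218 cases (56.0%, 51.0 to 61.0%), against 46.8% of CG-poor peaks (35.5 to 58.4%), 16.2% of CG-rich peaks at starts (14.4 to 18.1%) and 28.5% of the coding sequence. The distance that members keep from starts also leaves out sequence of first exons near a start. Members in coding genes stood at a median of 65.2% of the way from the first start to the end of the gene, and those in coding exons at 83.8%. The end of a coding transcript lay within 1 kb of 221 members (8.33%, 7.30 to 9.44%) and of 2.82% of CG-poor peaks away from starts (2.25 to 3.49%). The share was 5.33% at CG-rich peaks at starts (4.88 to 5.81%) and 5.30% over all *Hells* cKO peaks.

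The 5 strongest members in coding exons came from genes of different kinds. *Zkscan16*, which codes for a zinc finger protein with KRAB and SCAN domains, held the strongest of all members at chr4:58956169-58958270, with a strength of 431, rank 39 of the list and 21 CG dinucleotides, 13592 bp from the nearest start. *Nrip1*, a corepressor of nuclear receptors whose protein is coded by 1 exon, held a member of strength 417 at chr16:76290930-76293979 with 18 CG dinucleotides. *Tmem56*, a membrane protein gene, had a strength of 234, *Adgrl3*, an adhesion receptor of neurons, 224, and *Zeb2*, a transcriptional repressor, 220. *Zeb2* had a second strong member in an intron, with a strength of 226, at chr2:45000788-45002899.

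A small part of the members in coding exons lay in genes named for zinc fingers. Of the 2654 members, 27 lay in coding exons of genes named Zfp, Zkscan, Zscan, Zbtb, Zim or Zik. This set was chosen after its values were seen. Such exons also held 18 of 9043 CG-rich peaks at starts and 2 of 2903 CG-poor peaks away from starts. The median strength of the 27 was 35, against 28 (26 to 31) for all members in coding exons. In 19 of the 27 members (70.4%, 49.8 to 86.2%) the sequence around the center matched itself best at a shift of 84 bp or a multiple of it. A shift of 84 bp is the length of 1 C2H2 finger with its linker. The same shift was best in 15 of the 2627 other members (0.571%, 0.320 to 0.940%). The names pick genes that code for such fingers, so this difference follows largely from the naming and describes the sequence only. In coding exons of genes with these names, the shift was best in 0 of 18 CG-rich peaks at starts and 0 of 2 CG-poor peaks away from starts. After *Zkscan16* came *Zfp791* with a strength of 142 and a best shift of 252 bp, *Zfp647* with 105 and 168 bp, *Zfp42*, a marker of pluripotent cells, with 91 and 90 bp, and *Zfp619* with 90 and 168 bp. The weakest were *Zbtb7c* with 10 and *Zfpm2* with 11. Paralogous zinc finger exons resemble each other, and only uniquely mapped reads were kept, so the strength in them counts the reads that could be placed, and how far this changed the values was not tested.

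In introns the strongest member had a strength of 319 and lay in *Senp7*, a SUMO protease gene, at chr16:56144534-56146507, 4041 bp from the nearest start. *Nek7*, a kinase gene, followed with 302 at chr1:138616338-138620247, 1381 bp from its start and with only 15 CG dinucleotides and no CpG island at the center. *Gtf2a1*, which codes for subunits of the general factor TFIIA, had 260 at 1033 bp from a start, and another *Hells* cKO center lay 1723 bp away. *Cadps2*, which acts in vesicle release, had 250, and *Zeb2* 226. A second *Hells* cKO center lay within 3 kb of 38 members (1.43%, 1.02 to 1.96%). In other exons the strongest members had strengths of 243 (*Anks1b*), 210 (*Ppp4r1l-ps*, a pseudogene), 204 (*Bcl7a*, a subunit of BAF chromatin remodelers), 154 (*Col19a1*, a collagen gene) and 129 (*Ctnna3*, an alpha-catenin gene).

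Between genes, 2 of the 5 strongest members lay beside a RefSeq start that GENCODE M21 does not list. The strongest, at chr7:73617366-73619901, had a strength of 338, 55 CG dinucleotides and a CpG island of 1112 bp, 8801 bp from the nearest start and 76.9 kb from that of *Chd2*. The next, at chr14:61685464-61688033, had 315 with 35 CG dinucleotides. The one at chr4:8645973-8649096, had 252 with 59 CG dinucleotides and lay 26047 bp from the nearest GENCODE start but 78 bp from a RefSeq start, that of *Gm8273*. The one at chr15:37134642-37136717, with a strength of 239, lay 61 bp from the RefSeq start of *Gm41301*. The member at chr2:61654884-61658173, with a strength of 250, lay 12698 bp from the nearest GENCODE start and 55165 bp from the nearest RefSeq start. Over all members, a RefSeq start lay within 1 kb of 227 (8.55%, 7.52 to 9.68%), most of them predicted, since a curated one did so for 48 (1.81%, 1.34 to 2.39%). The share was 5.55% (4.74 to 6.44%) for CG-poor peaks away from starts. Members near a RefSeq start had a median strength of 28 (25 to 31) and the 2427 others 24 (23 to 24). A RefSeq enhancer lay within 250 bp of 26 member centers (0.980%, 0.641 to 1.43%) and of 0.482% of CG-poor centers away from starts (0.264 to 0.808%), intervals that overlapped.

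The 5 members with the most CG dinucleotides ranged widely in strength, from 13 to 219. The one at chr9:32031417-32033638, 76 bp from a RefSeq start of *Arhgap32*, had 99 CG dinucleotides and a strength of 94. A coding exon of *Nrg2*, a growth factor gene, had 95 and a strength of 24, and an intron of *Gm3448* had 90 and a strength of 30. The member in *Gm3448* lay 171 bp from a RefSeq start. The member at chr14:115039817-115043594, 1173 bp upstream of the start of *Mir17hg*, host of a miRNA cluster that promotes proliferation, also had 90, with a strength of 219 and a CpG island of 2356 bp. The peak interval, 3778 bp wide, covered that start. A coding exon of *Cacna1a*, a calcium channel gene, had 88 and a strength of 13. The 2 coding exons thus lay at percentiles 38.9 and 10.9 of the list while their number of CG dinucleotides was above the upper quartile of 55 at CG-rich starts.

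Members inside coding genes came with a promoter peak of the same gene no more often than CG-poor peaks away from starts did. The strongest promoter peak was usually stronger than the member. Of 1145 members in a coding gene, 624 (54.5%, 51.6 to 57.4%) lay in one with a *Hells* cKO center within 1 kb of any of its starts. The share was 60.4% (57.2 to 63.6%) for CG-poor peaks away from starts, and 9478 of 20807 autosomal coding genes had such a peak (45.6%, 44.9 to 46.2%). The 970 genes that held members had a median length of 77.7 kb, against 17.6 kb over all autosomal coding genes, and 51.4% of them (48.2 to 54.6%) had a promoter peak. The 630 pairs set each member against the strongest *Hells* cKO peak within 1 kb of any start of its gene. The promoter value could thus be the highest of several. In these pairs the member had a median strength of 26 and the promoter peak 41. The member was the stronger in 203 pairs (32.2%, 28.6 to 36.0%), and the median log2 ratio of member over promoter peak was -0.64 (quartiles -1.48 and 0.39). The same share for CG-poor peaks inside genes is not given here. In *Zkscan16* the strengths were 431 for the member and 13 for the promoter peak, in *Zfp791* 142 and 9, and in *Adgrl3* 224 and 16, the largest ratios in the group with 33.2, 15.8 and 14. In *Nrip1* they were 417 and 80, in *Senp7* 319 and 150 and in *Gtf2a1* 260 and 124. *Nek7* had no peak center within 1 kb of a start. The interval of its member, 3910 bp wide with a center 1381 bp away, nevertheless covered the *Nek7* start. Where the gene had no promoter peak the median strength of the member was 23. For members between genes, the nearest coding gene had a promoter peak in 801 of 1324 cases (60.5%, 57.8 to 63.1%). For CG-poor peaks between genes and away from starts it did so in 65.6% (63.4 to 67.9%). The member was stronger than the promoter peak in 20.6% of its cases (17.8 to 23.6%), and the CG-poor peak in 14.7% (12.7 to 16.8%). The median distance from the coding start was 38.9 kb over all members between genes and 58.5 kb over the CG-poor peaks there.

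**Figure D5:**
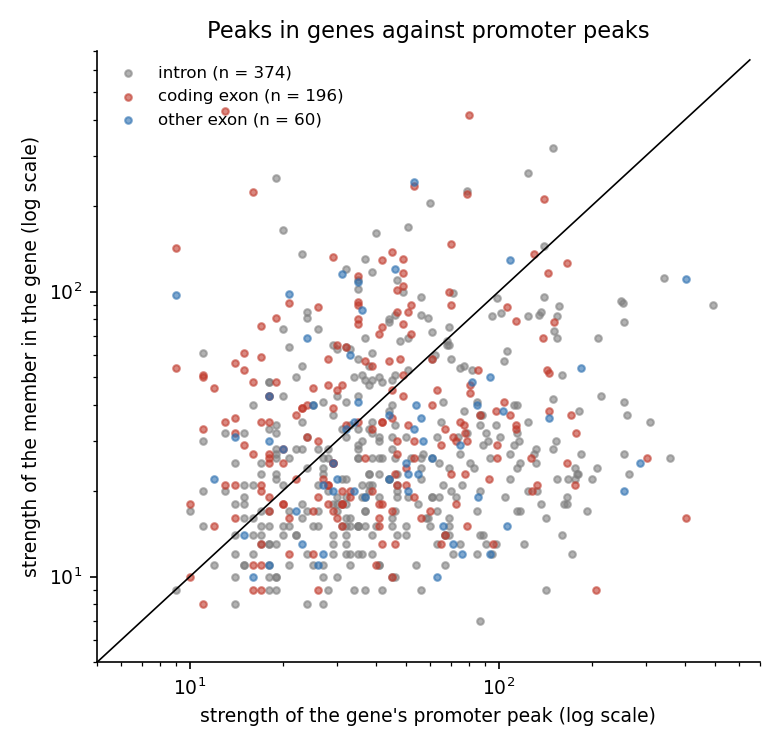
Strength of each member inside a coding gene (vertical log axis) against the strength of the strongest *Hells* cKO peak within 1 kb of a start of the same gene (horizontal log axis), for 630 pairs by the place of the member. The line marks equal strength, and 203 pairs lie above it, the farthest being *Zkscan16* with 431 against 13.

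Another *Hells* cKO peak of any kind lay within 10 kb of 463 members (17.4%, 16.0 to 18.9%), of 1200 of 9043 CG-rich peaks at starts (13.3%) and of 13.2% of CG-poor peaks away from starts (11.9 to 14.4%). Groups of members were rarer. Of all, 2523 had no other member within 10 kb, 61 pairs and 3 groups of 3 lay closer, and no group was larger. One group was at *Ebf3*, a transcription factor gene, with strengths of 78, 50 and 59 in an intron and upstream of the gene. Another was in *Zfp64*, a zinc finger gene, with 17, 15 and 50, and the third spanned the end of *Camkmt*, a calmodulin methyltransferase gene, with 41, 20 and 22. Single genes held at most 6 members, and those named next were chosen after their values were seen. *Tenm3*, a teneurin gene of 616 kb, had 6 with strengths of 22 to 80 (median 47.5), and *Dlgap1*, a scaffold gene of the synapse, had 6 with 19 to 72 (median 26). *Maml3*, a coactivator of Notch, had 6 with 9 to 19 (median 12.5) and no promoter peak. *Fat1*, an atypical cadherin, had 3 members of 96, 144 and 211, and a promoter peak of 140. The member of 96 lay 51 bp from a RefSeq start. On the chromosomes, members made up 12.8% of the peaks of chromosome 11 at the lowest and 20.8% of those of chromosome 8 at the highest, and the median strength ranged from 19.5 on chromosome 9 to 32 on chromosome 16.

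Members inside the genes of 10 lists were few, from 0 to 34 per list. Over all autosomal coding genes, 970 of 20807 held a member. Of 39 Hox genes, none held a member, which allows a share of up to 0.113% of the members. These genes held 4 CG-rich peaks at starts (0.0442% of that group) and 2 CG-poor peaks away from starts (0.0689%), so a share of that size could not be told from 0 here. No member and no CG-poor peak away from starts lay in 56 clustered protocadherin genes, where 2 had a promoter peak, or in 39 genes of meiotic recombination and synapsis, of which 33 had a promoter peak. For each list this allows a share of up to 0.113% of the members. The 2 lists held 0.0221% and 0.299% of CG-rich peaks at starts. Whether 0 is fewer than lists of this size would hold was not tested. Of 93 forkhead, Sox, Pax, Lhx, Tbx and Gata factor genes, 14 held 15 members with a median strength of 33, and the strongest was in the coding exon of *Sox21* with 79 and 77 CG dinucleotides. These genes held 0.565% of the members, 0.354% of CG-rich peaks at starts and 0.276% of CG-poor peaks away from starts. Of 94 other homeobox and POU genes, 16 held 23 members with a median of 23, led by *Pou3f3* with 73. The shares of the same 3 groups of peaks in these genes were 0.867%, 0.254% and 0.413%. Of 358 Zfp genes, 28 held 34 members with a median of 29, 19 of them in coding exons. Those 34 were 1.28% of the members, and the same genes held 193 CG-rich peaks at starts (2.13% of that group) and 5 CG-poor peaks away from starts (0.172%). Of 92 potassium channel genes, 11 held 12 members, led by *Kcnmb4* with 43. The shares were 0.452% of the members, 0.122% of CG-rich peaks at starts and 0.310% of CG-poor peaks away from starts. The list of basic helix-loop-helix factors held 5 members in 47 genes, led by *Tcf7l2* with 38, which with *Tcf7l1* is an HMG box factor that the name pattern took in. In the same order of groups, its shares were 0.188%, 0.232% and 0.103%. *Wnt10b*, with 19, was the sole member among 29 Wnt and Frizzled genes, whose shares were 0.0377%, 0.0663% and 0.0344%. Of 72 histone modifier genes 3 held a member, *Setd1b*, an H3K4 methyltransferase, with 79, *Kdm6b*, an H3K27 demethylase, with 50 and *Setd7* with 12, while 58 had a promoter peak. The shares were 0.113% of the members, 0.531% of CG-rich peaks at starts and 0.0689% of CG-poor peaks away from starts. Members between genes were also assigned to the gene with the nearest coding start, which could be far away. For *Kcnrg* the strongest had 315 at 79267 bp from that start, with a start of *Gm37820* at 3239 bp. The strongest had 178 for *Zfp292* (3888 bp), 109 for *Pou4f1* (7307 bp) and 86 for *Twist1* (9649 bp). It had 22 for *Wnt10a* (23696 bp) and 167 for *Rad21l*, a meiotic cohesin subunit (1599 bp).

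Short sequences that transcription factors bind were searched on both strands within 250 bp of the center. The GC box GGGCGG, bound by SP1 and KLF factors, was in 35.7% of the members (33.9 to 37.5%), 75.9% of CG-rich peaks at starts (75.1 to 76.8%), 19.6% of CG-poor peaks away from starts (18.2 to 21.1%) and 5.81% of *Hells* CTRL peaks. The YY1 motif AAGATGGC, which holds no CG, was in 9.31% of the members (8.23 to 10.5%), 6.52% of CG-rich peaks at starts (6.02 to 7.05%) and 7.23% of CG-poor peaks away from starts (6.32 to 8.24%), of which the last touched the interval of the members. The E box CACGTG was in 15.3% of the members (13.9 to 16.7%), 12.3% at CG-rich starts (11.7 to 13.0%) and 11.1% at CG-poor peaks away from starts (9.94 to 12.3%). The ETS motif CCGGAAGT was in 3.92% of the members, 7.29% at CG-rich starts and 3.72% of CG-poor peaks away from starts. The CCAAT box was in 38.6% of the members (36.7 to 40.5%) and 34.6% at CG-rich starts (33.6 to 35.5%). At CG-poor peaks away from starts it was in 49.2% (47.3 to 51.0%). The NRF1 motif GCATGCGC, the CRE motif TGACGTCA and the CTCF core AGGGGGCGC were each in under 3% of the members (2.79%, 1.02% and 1.73%). Over all *Hells* cKO peaks their shares were 2.98%, 1.54% and 2.11%. All but the YY1 motif and the CCAAT box hold a CG dinucleotide, whose number the criteria fixed, and a match is a description of the sequence only.

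Repeated sequence was more frequent among the members than at CG-rich starts. A tandem repeat was found within 1 kb of the center in 27 members (1.02%, 0.671 to 1.48%), with a median strength of 35 and at most 135, in 55 CG-poor peaks away from starts (1.89%, 1.43 to 2.46%) and in 5 CG-rich peaks at starts (0.0553%, 0.0180 to 0.129%). Over 50% of the bases within 250 bp were masked as interspersed or simple repeats in the reference in 177 members (6.67%, 5.75 to 7.69%), and these had a median strength of 28 (24 to 34). The share was 6.17% in CG-poor peaks away from starts (5.32 to 7.10%), 0.221% at CG-rich starts (0.135 to 0.341%) and 3.06% over all *Hells* cKO peaks (2.80 to 3.32%). At least 80% was masked in 2.26% of the members (1.73 to 2.90%) and 1.21% of CG-poor peaks away from starts (0.841 to 1.67%). Unmapped and multiply mapped reads were not analysed here, so the part of repeats in these strengths was not tested.

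On both sides of the limits, median strengths were 21 and 19 for the number of CG dinucleotides and 26 and 34 for the distance to a start. The 405 members with exactly 15 CG dinucleotides had a median strength of 21, and the 462 peaks away from starts with 14 had 19. The 3 strongest with 15 had strengths of 302, 190 and 172, and the 3 strongest with 14 had 143, 134 and 125. At the limit of 1 kb, the nearest members lay 1002, 1002 and 1007 bp from a start, at *Hexim1*, *Sin3a* and *Zfp704*, with strengths of 42, 35 and 24. Their intervals, 2090, 2164 and 2474 bp wide, covered that start, since the distance was counted from the center. The nearest peaks outside lay at 993, 992 and 991 bp, with strengths of 89, 31 and 44. The 136 members at up to 1500 bp from a start had a median strength of 26, and the 511 CG-rich peaks beyond 500 bp and within 1000 bp had 34. Of all autosomal *Hells* cKO peaks, 94.6% had no *Hells* CTRL center at less than 400 bp. Only 22 CG-rich peaks away from starts were left out for a *Hells* CTRL center, with a median strength of 58.5 in *Hells* cKO. Their median percentile was 73.4 within the *Hells* cKO list and 52.5 within the *Hells* CTRL list. The *Hells* CTRL list held 9657 autosomal peaks away from starts, of which 100 had at least 15 CG dinucleotides and 78 of these had no *Hells* cKO center at less than 400 bp.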

How the data were processed

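DMC1 ChIP-SSDS was measured in 2 replicates per genotype. The authors trimmed the reads to 50 bp, mapped them to GRCm38/mm10, kept non-duplicated and uniquely mapped reads, ran MACS for each replicate and for pooled reads, and selected the final peaks by the Irreproducible Discovery Rate. The deposited strength of each peak is the authors' score, which the methods describe as fragments corrected for local background and library size. The values are whole numbers of unknown read depth.

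The center of a peak was the integer midpoint of its interval. Sequence came from GRCm38.p6 and starts from GENCODE M21. Shares have exact (Clopper-Pearson) and medians order-statistic 95% intervals. A CpG island was a run of joined windows of 200 bp with G+C of at least 50% and observed over expected CG of at least 0.6, searched over 2000 bp on each side. A tandem repeat had at least 0.7 identical bases when shifted by 10 to 400 bp, over 500 bp. The searches for tandem repeats, CpG islands and motifs, the nearest distances and the median intervals were tested on simulated data. The members and gene lists were chosen with earlier results of these data known. Peaks named were the strongest overall and by place, those with the most CG dinucleotides, those next to each limit, groups within 10 kb, the strongest in each list and the largest relative to a promoter peak. The limits were changed in 10 ways, and in 3 more chosen after seeing the data. The 5hMeDIP libraries were not analysed here. Scripts ran in Python 3.11.15 with scipy 1.17.1, pandas 2.3.3, numpy 2.4.6 and matplotlib 3.10.9.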

Additional observations from a re-analysis of the deposited data

How the results depend on the processing

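Each criterion was changed alone. The number of members rose from 2654 to 4690 with a minimum of 10 CG dinucleotides and fell to 1126 with 20 and to 982 among peaks at or above the median strength of the list. The median strength of 24 was 22, 27 and 50 under the same changes. The share between genes, 49.9%, was 54.3% and 45.2% with 10 and 20 CG dinucleotides, 52.0% with 6 within 100 bp, 43.7% with a reach of 500 bp to a start, 51.9% with 2 kb and 41.9% with starts of protein-coding transcripts only. Among alternatives added after seeing the data, it was 47.9% without members masked over 50% of their bases. The share with a tandem repeat, 1.02%, was 1.53% at or above the median strength, and 0 without such members by construction. The share of members in coding genes with a promoter peak, 54.5%, was 45.6% with a reach of 500 bp, 57.5% with 2 kb and 60.1% at or above the median strength. The cause was not tested. The number of members stayed between 2420 and 3578 and the median strength between 23 and 25 under the other 10 alternatives, among them chromosome X included, other distances to a *Hells* CTRL center, and no tandem repeats or RefSeq starts. No paired analysis was possible because the authors merged the replicates into 1 list per genotype, and no replicate could be left out for the same reason. The depth of the libraries is unknown, so peaks below the limit of the peak caller cannot be described.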

Other observations

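The 22 CG-rich peaks away from starts that had a *Hells* CTRL partner, and so were no members, reached high strengths in *Hells* cKO. The strongest, at chr2:61814638-61817045 between genes, had a strength of 449 with 47 CG dinucleotides. Coding exons of *Sf3b5*, a splicing factor gene, and *Chd7*, a chromatin remodeler gene, had 253 and 250. The peak in *Sf3b5* lay 206 bp from a curated RefSeq start. The 78 CG-rich peaks away from starts without a *Hells* cKO partner had a median percentile of 45.4 within the *Hells* CTRL list and a median of 17 CG dinucleotides.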
